A study of Arabidopsis thaliana with 12 samples.

Results

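The 10 genes described here act in the synthesis of tryptophan and of camalexin in Arabidopsis thaliana. They were listed by name from the 13307 genes of the deposited count table, with earlier results of these data known. They are ASA1 (AT5G05730), TSA1 (AT3G54640), TSB1 (AT5G54810), CYP79B2 (AT4G39950), CYP79B3 (AT2G22330), CYP71A12 (AT2G30750), CYP71A13 (AT2G30770), GGP1 (AT4G30530), PAD3 (AT3G26830) and MYB51 (AT1G18570). All 10 were measured and all 10 entered the test. Because of how they were chosen, the counts of calls among the 10 given below are no independent support for a response of the pathway. RNA came from whole seedlings of the wild type, ecotype Col-0, that were 2 weeks old and had grown on plates with MS medium and sucrose. Every seedling was first kept in water and then moved for 2 h, under light of 30 µE, to Rose Bengal (RB) at 0, 10, 100 or 400 µM. RB is a photosensitising dye that gives off singlet oxygen under light, and RB 0 µM, the untreated group, shared the water, the plates and the light. Each dose had 3 libraries made by MARS-seq, a method whose reads fall at the 3′ end of messenger RNA.

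Camalexin is the main sulphur-containing antimicrobial indole of Arabidopsis, and its carbon skeleton comes from tryptophan. Tryptophan is made in the plastid from chorismate, and its first committed step is anthranilate synthase. The cytochromes P450 CYP79B2 and CYP79B3 turn it into indole-3-acetaldoxime, from which camalexin, the indole glucosinolates and some auxin are made. CYP71A12 and CYP71A13 carry the aldoxime on to indole-3-acetonitrile, which is joined to glutathione and trimmed by peptidases such as GGP1 before PAD3 closes the ring of camalexin. MYB51 is a transcription factor known for switching on indole glucosinolate genes, and WRKY33, a factor that binds W-box motifs, is known to act on CYP71A13 and PAD3 after attack by pathogens.

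In the RefSeq annotation of TAIR10.1 the genes lay on all 5 chromosomes. CYP71A12 (chr2:13099486-13101371) and CYP71A13 (chr2:13109909-13111988) lay 8537 bases apart on the minus strand of chromosome 2. The exon counts ran from 2 in PAD3 (chr3:9887917-9889791, plus strand) and CYP79B3 (chr2:9488413-9491404, plus strand) to 8 in ASA1 (chr5:1719533-1722933, minus strand) and TSA1 (chr3:20223034-20225523, minus strand). ASA1 overlapped 2 genes on the opposite strand and CYP71A13 overlapped 1, and none of these 3 partners was among the genes analysed here. Whether the reads were counted by strand is not given in the sources used here, so that reads of such partners could not be told apart from those of ASA1 and CYP71A13.

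The 300 bases before each gene's annotated start were searched on both strands for the W-box core TTGAC and for the G-box CACGTG, a motif bound by MYC factors. The W-box core was found in 6 of 10 windows, against 50.4% of 27443 windows of the same length over the genome. Of these, GGP1 had 3 matches and TSA1, CYP71A12, CYP71A13 and MYB51 had 2 each, where 17.9% of all windows had at least 2 and 5.07% at least 3. The G-box was found in none of the 10 windows and in 7.09% of all windows. The windows below are those of MYB51 (chr1:6389099-6389398, plus strand), of the neighbouring copies CYP71A12 (chr2:13101372-13101671, minus strand) and CYP71A13 (chr2:13111989-13112288, minus strand), and of PAD3 (chr3:9887617-9887916, plus strand), which had no match. They show the genes with the largest called changes and the pair hardest to tell apart, 5′ to 3′ on the strand of the gene, with each W-box core (TTGAC, or GTCAA where it lies on the other strand) in capitals.
MYB51: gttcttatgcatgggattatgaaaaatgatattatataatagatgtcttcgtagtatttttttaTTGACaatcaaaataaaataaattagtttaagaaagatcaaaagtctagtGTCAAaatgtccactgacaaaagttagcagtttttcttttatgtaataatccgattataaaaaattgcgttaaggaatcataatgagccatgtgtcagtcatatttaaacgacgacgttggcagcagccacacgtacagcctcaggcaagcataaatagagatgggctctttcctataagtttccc
CYP71A12: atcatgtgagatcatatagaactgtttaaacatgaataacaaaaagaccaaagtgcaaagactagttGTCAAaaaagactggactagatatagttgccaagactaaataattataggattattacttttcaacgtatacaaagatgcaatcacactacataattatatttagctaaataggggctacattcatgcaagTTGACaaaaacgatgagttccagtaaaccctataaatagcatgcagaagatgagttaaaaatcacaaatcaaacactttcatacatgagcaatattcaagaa
CYP71A13: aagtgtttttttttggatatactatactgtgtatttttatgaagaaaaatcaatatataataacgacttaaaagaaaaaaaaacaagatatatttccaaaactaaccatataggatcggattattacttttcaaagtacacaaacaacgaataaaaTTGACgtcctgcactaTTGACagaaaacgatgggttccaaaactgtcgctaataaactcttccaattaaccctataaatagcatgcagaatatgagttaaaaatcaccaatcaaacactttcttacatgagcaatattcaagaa
PAD3: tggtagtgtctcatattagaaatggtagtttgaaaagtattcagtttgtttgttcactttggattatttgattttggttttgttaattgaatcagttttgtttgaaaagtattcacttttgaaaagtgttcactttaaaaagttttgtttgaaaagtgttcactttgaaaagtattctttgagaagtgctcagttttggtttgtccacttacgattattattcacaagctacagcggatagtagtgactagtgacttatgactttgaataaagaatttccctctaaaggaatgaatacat
A match describes these letters and is no evidence of binding, and a window with no match says nothing of the factor. In CYP71A13 the cores began at positions -144 and -128 relative to the start, and in CYP71A12 at -233 and -102.

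The upstream windows of the copies also shared unbroken runs. CYP71A12 and CYP71A13 had 23 bases in common, beginning at -77 in both. CYP79B2 (chr4:18524945-18525006, plus strand) and CYP79B3 (chr2:9488242-9488303, plus strand), which lie on chromosomes 4 and 2, shared 22 bases that began at -77 and -151. The stretch is shown with the shared run in capitals and 20 bases on either side.
CYP79B2: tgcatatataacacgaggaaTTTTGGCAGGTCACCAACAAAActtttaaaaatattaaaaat
CYP79B3: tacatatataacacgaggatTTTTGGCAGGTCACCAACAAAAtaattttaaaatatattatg
As with the motifs, a shared run is a description of the letters only.

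Library totals ran from 1499791 to 3608636 reads, and the number of reads limits the precision of the low genes. For RNA extraction the methods describe biological replicates, each of several whole seedlings. Neither the labels nor the account of the sequencing ties the 3 libraries of a dose to them, so whether the spread behind the p-values is biological or technical is not given. Levels are given as CPM, the counts of a gene scaled to a common library total with edgeR's TMM factors, and a gene was called where edgeR's quasi-likelihood test gave a Benjamini-Hochberg adjusted p under 0.05 over all 13307 genes. The log2 fold change is that of the fit, and SE is its standard error. At every dose the comparison used the same 3 untreated libraries. A component of the scatter within doses held 33.4% of the variance of 6904 genes with at least 10 CPM, against 14.7% for the next. It set apart replicate 1 at RB 10 µM, replicate 1 at RB 100 µM and replicate 2 at RB 400 µM. Their scores were 0.36, 0.66 and 0.28, while RB 100 µM replicate 2, at -0.38, lay at the other end and was kept. Calls against RB 0 µM for the 10 genes and for the lists around them are also counted without the 3 libraries set apart, in either direction. As the 3 were picked from the scatter of these same data, such counts are no independent support. The labelled tissue was whole seedlings, and leaf and root markers were both present in the untreated libraries. The 6 root markers measured summed to 127 to 189 CPM at RB 0 µM, 92.3 to 105 CPM at 10 µM, 83.3 to 92.1 CPM at 100 µM and 50.4 to 60.6 CPM at 400 µM, where COBL9, a root hair gene, had 0 reads. Of these markers 3, 3 and 6 were called lower at the 3 doses, against 1.07%, 4.22% and 6.43% of all genes (3, 3 and 5 without the 3 libraries, and 5 at 100 µM when replicate 2 of that dose was left out). The 6 leaf markers summed to 21818 to 22080 CPM at RB 0 µM, 16970 to 18739 CPM at 10 µM, 13836 to 18022 CPM at 100 µM and 16540 to 20360 CPM at 400 µM, with 1, 3 and 2 called lower, as without the 3 libraries. The leaf call at 10 µM, LHCB2.1, was lost in 12 of 20 alternatives, and at 100 µM 1 leaf marker was called when untreated replicate 1 or 3 was left out. The root markers fell unequally. At 100 µM the means of EXPA7 and EXPA18 were 1.74 and 2.66 CPM, against 16.9 and 22.6 CPM untreated. The mean of CASP1 was 53.4 CPM against 57.8 CPM, and its libraries overlapped the untreated ones. Fewer root cells, less RNA per root cell and a change of single genes cannot be told apart in whole seedlings, and the part of each in the results below was not tested.

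At RB 10 µM, 1 of the 10 genes, MYB51, was called higher, where 2.66% of all genes were. At 100 µM, 7 of 10 were called higher, where 7.32% of all genes were, and these were ASA1, TSA1, TSB1, CYP79B2, CYP79B3, PAD3 and MYB51. At 400 µM, CYP71A13 was called as well, which made 8 of 10 against 9.11% of all genes. None was called lower at any dose by edgeR or DESeq2, nor lower at an unadjusted p under 0.05. The median log2 fold change of the 10 genes was 0.38 at 10 µM, 0.78 at 100 µM and 1.02 at 400 µM, beside medians of 0.02, -0.04 and -0.04 over all genes. In the F test over the 3 doses together 7 of 10 differed, against 14.6% of all genes, and CYP79B3 was just outside with an adjusted p of 0.0548. Without the 3 libraries set apart, 2, 8 and 10 genes were called at the 3 doses, and at 100 µM the added call was GGP1, which was then lower. Over all genes 516, 2369 and 2268 were then called in either direction, in place of 497, 1535 and 2068. The F test, which takes no account of direction, then called 10 of 10, GGP1 among them. No count over all genes was made for that test, so this count is not read as a result. When each library was left out in turn, 5 to 7 of the 10 were called at 100 µM and 6 to 8 at 400 µM.

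The separation of the libraries gave a like order. All 3 libraries lay above all 3 untreated ones for 6 of 10 genes at 10 µM, for 7 at 100 µM and for all 10 at 400 µM, where 10.4%, 14% and 17.4% of all genes did so. Between 10 and 100 µM, TSA1, TSB1, CYP79B2 and PAD3 were called higher, against 2.98% of all genes called higher and 1.5% called lower, so that for these 4 genes the level rose between those doses. There 6 of the 10 were called in either direction without the 3 libraries. The added calls were CYP71A12, which was higher (log2 1.58, adjusted p = 0.000345), and GGP1, which was lower (log2 -1.84, adjusted p = 5.25e-07). The calls over all genes were not counted for this step in that setting, so this count is not read as a result. Between 100 and 400 µM none of the 10 was called by edgeR or by DESeq2, with 1 at an unadjusted p under 0.05 (CYP71A13), and 0.0451% of all genes were called in either direction. The plot of levels by dose shows each library.

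**Figure D1:**
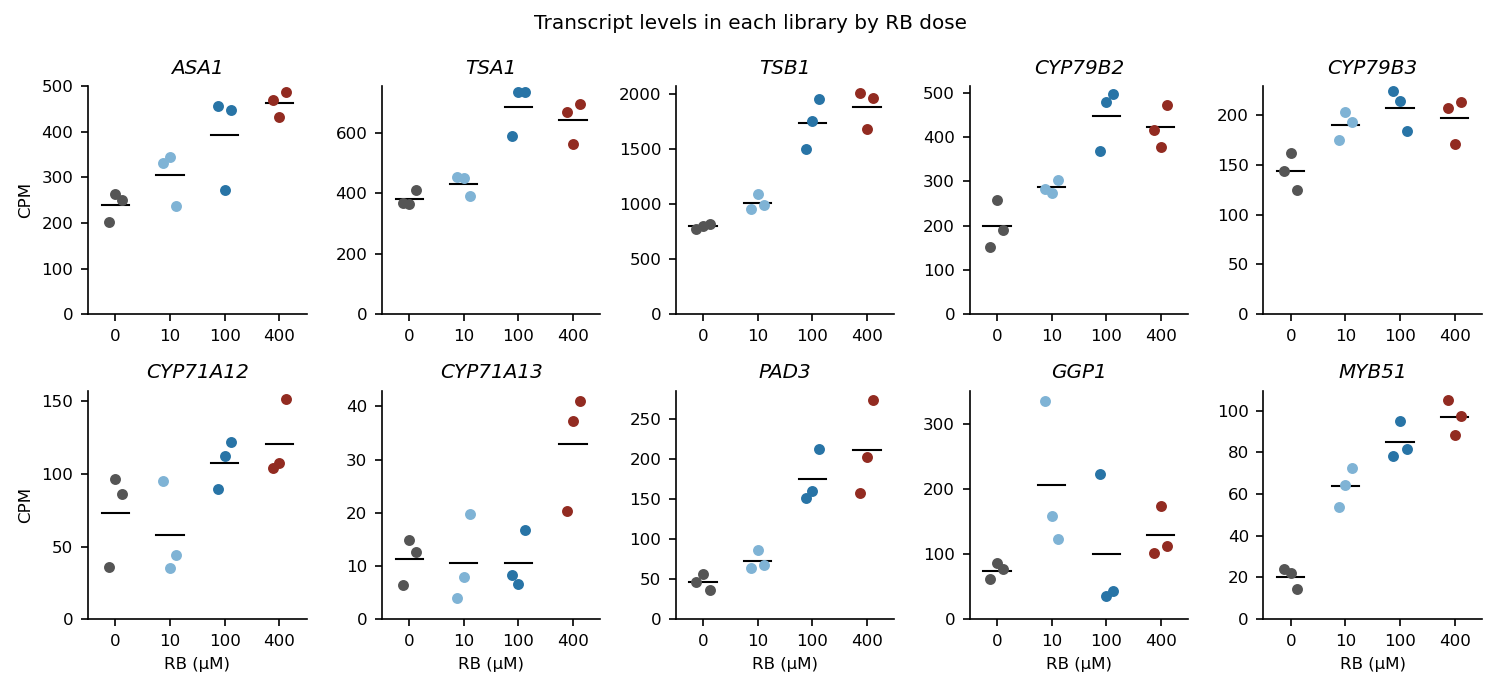
Level of each of the 10 genes in CPM (vertical axis, from 0) in every library at RB 0, 10, 100 and 400 µM (horizontal axis). Each point is 1 library and each bar the mean of 3, and at 400 µM every point lies above the 3 untreated ones in all 10 panels.

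ASA1 encodes the alpha subunit of anthranilate synthase, the enzyme that commits chorismate to tryptophan. Its level was 201, 264 and 251 CPM in the untreated libraries, 332, 344 and 237 CPM at 10 µM, 456, 272 and 448 CPM at 100 µM and 469, 433 and 486 CPM at 400 µM. At 10 µM 1 library lay within the untreated range, at 100 µM RB 100 µM replicate 2 was low and just above it, and at 400 µM the 3 libraries lay close together and well above it. The fold was 1.64 at 100 µM (log2 0.72 ± 0.18 SE, adjusted p = 0.0127) and 1.94 at 400 µM (log2 0.95 ± 0.18 SE, adjusted p = 0.000958). At 10 µM the log2 fold change was 0.36 ± 0.18 SE and was not called (adjusted p = 0.393). The call at 100 µM did not hold when untreated replicate 1 was left out (adjusted p = 0.0833) or without RB 100 µM replicate 3 (adjusted p = 0.059).

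TSA1 and TSB1 encode the alpha and the beta subunit of tryptophan synthase, which makes the last steps. TSA1 stood at 368, 366 and 411 CPM untreated, 455, 449 and 390 CPM at 10 µM, 590, 734 and 736 CPM at 100 µM and 669, 562 and 694 CPM at 400 µM. TSB1 stood at 772, 803 and 821 CPM untreated, 957, 1089 and 992 CPM at 10 µM, 1498, 1756 and 1955 CPM at 100 µM and 2011, 1680 and 1966 CPM at 400 µM. For both, the 6 libraries at the higher doses were above every library at 0 and 10 µM, and only TSB1 was clear of the untreated range at 10 µM. TSA1 rose 1.80-fold at 100 µM (log2 0.85 ± 0.13 SE, adjusted p = 0.000142) and 1.68-fold at 400 µM (log2 0.75 ± 0.13 SE, adjusted p = 0.000386). TSB1 rose 2.17-fold (log2 1.12 ± 0.13 SE, adjusted p = 3.14e-06) and 2.36-fold (log2 1.24 ± 0.13 SE, adjusted p = 6.43e-07). At 10 µM the log2 fold changes were 0.18 ± 0.13 SE for TSA1 and 0.34 ± 0.13 SE for TSB1, with adjusted p of 0.611 and 0.167. The step from 10 to 100 µM was 1.59-fold for TSA1 (adjusted p = 0.00612) and 1.71-fold for TSB1 (adjusted p = 0.00136), and the step to 400 µM was not called for either (log2 -0.10 ± 0.13 SE and 0.12 ± 0.12 SE). Fitted on the 6 libraries of the 2 doses alone, the step of TSA1 was no longer called (adjusted p = 0.0572).

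CYP79B2 and CYP79B3 encode the enzymes that turn tryptophan into indole-3-acetaldoxime. CYP79B2 was at 153, 258 and 190 CPM untreated, 282, 273 and 304 CPM at 10 µM, 368, 478 and 498 CPM at 100 µM and 416, 379 and 474 CPM at 400 µM. CYP79B3 was at 144, 162 and 124 CPM untreated, 175, 203 and 193 CPM at 10 µM, 224, 214 and 184 CPM at 100 µM and 207, 171 and 213 CPM at 400 µM. Every treated library was above every untreated one for both genes, but the treated doses of CYP79B3 overlapped one another. CYP79B2 rose 2.23-fold at 100 µM (log2 1.16 ± 0.17 SE, adjusted p = 8.42e-05) and 2.11-fold at 400 µM (log2 1.08 ± 0.17 SE, adjusted p = 0.000147). CYP79B3 rose 1.44-fold (log2 0.53 ± 0.14 SE, adjusted p = 0.0185) and 1.37-fold (log2 0.46 ± 0.14 SE, adjusted p = 0.0357). At 10 µM neither was called, with log2 fold changes of 0.51 ± 0.17 SE (adjusted p = 0.124) and 0.40 ± 0.14 SE (adjusted p = 0.15), although CYP79B2 was called there without RB 0 µM replicate 2 (log2 0.73, adjusted p = 0.0179).

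The calls of CYP79B3 were the least stable of this pair. Scaled by library totals alone its adjusted p was 0.0825 at 100 µM and 0.143 at 400 µM, and leaving out single libraries ended the first call in 3 cases (untreated replicates 1 and 3 and replicate 2 at 100 µM, adjusted p = 0.0539 to 0.136) and the second in 4 (untreated replicates 1 and 3 and replicates 1 and 3 at 400 µM, 0.0914 to 0.171). The step of CYP79B2 from 10 to 100 µM (1.57-fold, log2 0.65 ± 0.17 SE, adjusted p = 0.0356) was lost in 8 of 20 alternatives. These were library totals (0.106), a fit restricted to the 2 doses (0.0874), and the omission of RB 0 µM replicate 3 (0.0578), of any library at 10 µM (0.0629 to 0.113), or of replicate 2 (0.125) or replicate 3 (0.147) at 100 µM. The plot of fitted changes sets the 10 genes side by side.

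**Figure D2:**
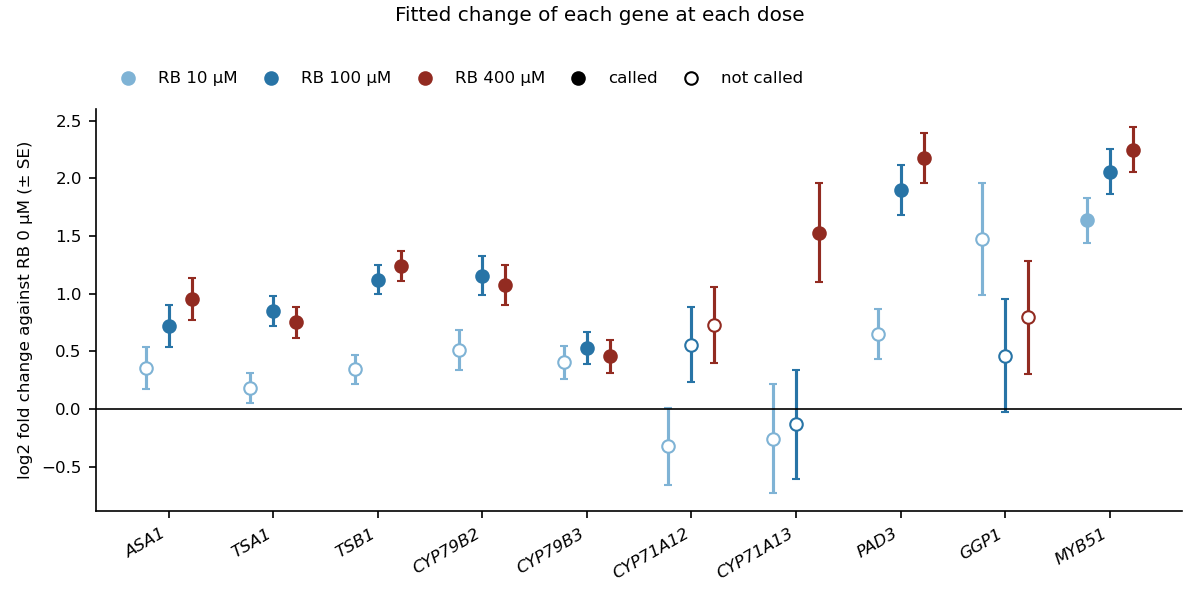
Log2 fold change against RB 0 µM (vertical axis) of each gene at RB 10, 100 and 400 µM, with its standard error. Filled points were called and open points were not, and MYB51 alone has 3 filled points while CYP71A12 and GGP1 have none.

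Reads of near-identical copies can be assigned to the wrong gene, and the transcripts of these pairs were therefore compared over their last 300 bases, where MARS-seq reads fall. CYP79B2 and CYP79B3 were alike in 68.1% of aligned bases with a longest shared run of 8 bases, whereas CYP71A12 and CYP71A13 were alike in 90.3% with a run of 44 bases. The ratio of the reads of the 2 genes of a pair was then compared over the 4 doses with an exact permutation test over 15400 partitions of the 12 libraries, a test added after the values had been seen and adjusted over 3 pairs. The mean log2 ratio of CYP79B2 to CYP79B3 was 0.46 ± 0.33 (SD, n = 3) untreated, 0.59 ± 0.14 at 10 µM, 1.11 ± 0.37 at 100 µM and 1.10 ± 0.08 at 400 µM. It differed between doses (p = 0.0279 in the exact permutation test, adjusted p = 0.0436), and CYP79B2 took 51.4 to 61.4% of the pair's reads untreated and 66.8 to 68.9% at 400 µM.

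TSB1 and TSB2, which encode beta subunits of tryptophan synthase, gave the other pair whose ratio differed (p = 0.0291 in the exact permutation test, adjusted p = 0.0436). Their mean log2 ratio was 4.46 ± 0.14 (SD, n = 3) untreated, 4.36 ± 0.26 at 10 µM, 4.78 ± 0.35 at 100 µM and 5.09 ± 0.14 at 400 µM. Of the reads of the pair TSB1 took 95.2 to 96.0% untreated and 96.8 to 97.3% at 400 µM. The deviations of TSB1 from its dose means had r = -0.81 with the component of scatter within doses, and those of TSB2 r = 0.13. The part of the component in this ratio was not tested. These 2 transcripts were alike in 71.7% of aligned bases, with a longest run of 9. The ratio of CYP71A13 to CYP71A12 gave p = 0.338 in the exact permutation test, and the share of CYP71A13 ran from 3.91 to 30.8% among the libraries at 10 µM alone.

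**Figure D3:**
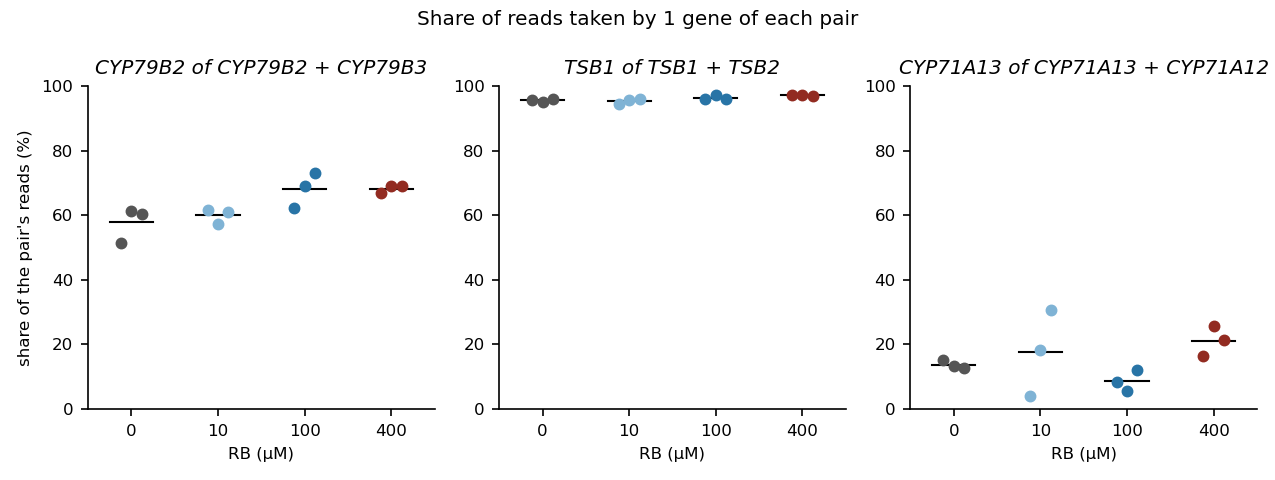
Share of the reads of a gene pair taken by its first gene (percent, vertical axis) in every library by RB dose, with the mean of 3 as a bar. CYP79B2 lies between 51.4 and 61.4% untreated and between 66.8 and 68.9% at 400 µM, and CYP71A13 spreads from 3.91 to 30.8% at 10 µM.

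CYP71A12 and CYP71A13, which carry indole-3-acetaldoxime on to the nitrile, overlapped the untreated libraries at 10 and 100 µM and cleared them at 400 µM. CYP71A12 had 35.9, 96.9 and 86.0 CPM untreated, 95.1, 35.4 and 44.3 CPM at 10 µM, 89.4, 112 and 122 CPM at 100 µM and 104, 107 and 152 CPM at 400 µM. RB 0 µM replicate 1 was low and RB 10 µM replicate 1 high within their groups, and the untreated range was cleared at 400 µM alone. No dose was called, with log2 fold changes of -0.32 ± 0.33 SE at 10 µM, 0.56 ± 0.33 SE at 100 µM and 0.73 ± 0.33 SE at 400 µM (adjusted p = 0.156). The gene was called at 400 µM when the fit was restricted to the 2 groups (adjusted p = 0.026) and without the 3 libraries set apart (log2 0.81, adjusted p = 0.018). Without RB 10 µM replicate 1 the step from 10 to 100 µM was called too (log2 1.41 in place of 0.88, adjusted p = 0.014).

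CYP71A13 rested on few reads, with 16, 47 and 29 in the untreated libraries. Its level was 6.46, 14.9 and 12.6 CPM untreated, 3.87, 7.87 and 19.7 CPM at 10 µM, 8.23, 6.51 and 16.7 CPM at 100 µM and 20.4, 37.2 and 41.1 CPM at 400 µM. The first 3 groups overlapped fully, and all 3 libraries at 400 µM, with 39, 71 and 97 reads, were above them. The gene rose 2.88-fold at 400 µM (log2 1.53 ± 0.43 SE, adjusted p = 0.0189), and the log2 fold changes at 10 and 100 µM were -0.26 ± 0.47 SE and -0.13 ± 0.47 SE. The call at 400 µM was lost when untreated replicate 1 (adjusted p = 0.0992) or 3 (0.0565) was left out, or replicate 2 (0.0655) or 3 (0.0998) at 400 µM. With a shared run of 44 bases near their ends, reads of these copies could be exchanged, and their separate values are uncertain.

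PAD3, also named CYP71B15, makes the last steps of camalexin synthesis, and it had the largest called change among the enzymes. It stood at 46.0, 56.7 and 36.5 CPM untreated, 64.1, 86.8 and 67.1 CPM at 10 µM, 152, 159 and 212 CPM at 100 µM and 157, 203 and 273 CPM at 400 µM. No library of a treated dose lay within the untreated range, the libraries at 100 µM were all above those at 10 µM, and the 100 and 400 µM groups overlapped. PAD3 rose 3.73-fold at 100 µM (log2 1.90 ± 0.22 SE, adjusted p = 3.35e-06) and 4.53-fold at 400 µM (log2 2.18 ± 0.22 SE, adjusted p = 4.32e-07). Between 10 and 100 µM it rose 2.38-fold (log2 1.25 ± 0.21 SE, adjusted p = 0.0017). The change at 10 µM, log2 0.65 ± 0.22 SE, was not called (adjusted p = 0.126), and under the 20 alternatives its adjusted p ran from 0.0505 to 0.44.

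GGP1 encodes a gamma-glutamyl peptidase that trims the glutathione conjugate, and its values were set apart by single libraries. It had 61.0, 85.5 and 76.4 CPM untreated, 336, 159 and 123 CPM at 10 µM, 223, 35.6 and 43.4 CPM at 100 µM and 101, 174 and 113 CPM at 400 µM. RB 100 µM replicate 1 held 624 of the 786 reads of that dose (79.4%), while the other 2 libraries at 100 µM lay below every untreated one. At 10 and 400 µM all libraries were above the untreated range. No dose was called, with log2 fold changes of 1.47 ± 0.49 SE (adjusted p = 0.121), 0.46 ± 0.49 SE (0.633) and 0.79 ± 0.49 SE (0.335).

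The deviations of GGP1 from its dose means followed the component that sets the 3 libraries apart, with r = 0.98 over the 12 libraries, and 4 of 6904 genes (GGP1 among them) lay as far to that side. TSB1 lay on the other side with r = -0.81, as far as 2.33% of genes did, and TSA1 had r = -0.59 and ASA1 r = 0.47. The points share their library and its depth, and these values are descriptions. The other 6 genes had r between -0.42 (MYB51) and 0.17 (CYP71A12). Without the 3 libraries GGP1 was called higher at 10 µM (log2 0.93, adjusted p = 0.000662), lower at 100 µM (log2 -0.91, adjusted p = 0.00107) and higher at 400 µM (log2 0.52, adjusted p = 0.0405). Since GGP1 follows the component by which the 3 libraries were picked, leaving them out narrows its spread by construction. These calls are therefore no independent support. Leaving out RB 100 µM replicate 1 alone gave log2 -0.91 at 100 µM (adjusted p = 0.0831), a called fall from 10 to 100 µM (log2 -2.39, adjusted p = 0.000152) and a called rise from 100 to 400 µM (log2 1.71, adjusted p = 0.0218). That library had the highest score on the component, 0.66, so the same limit holds for these values. When the fit was restricted to the 2 groups GGP1 was called at 10 µM (adjusted p = 0.00819) and 400 µM (adjusted p = 0.00205), and the part of the component in these values was not tested further.

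**Figure D4:**
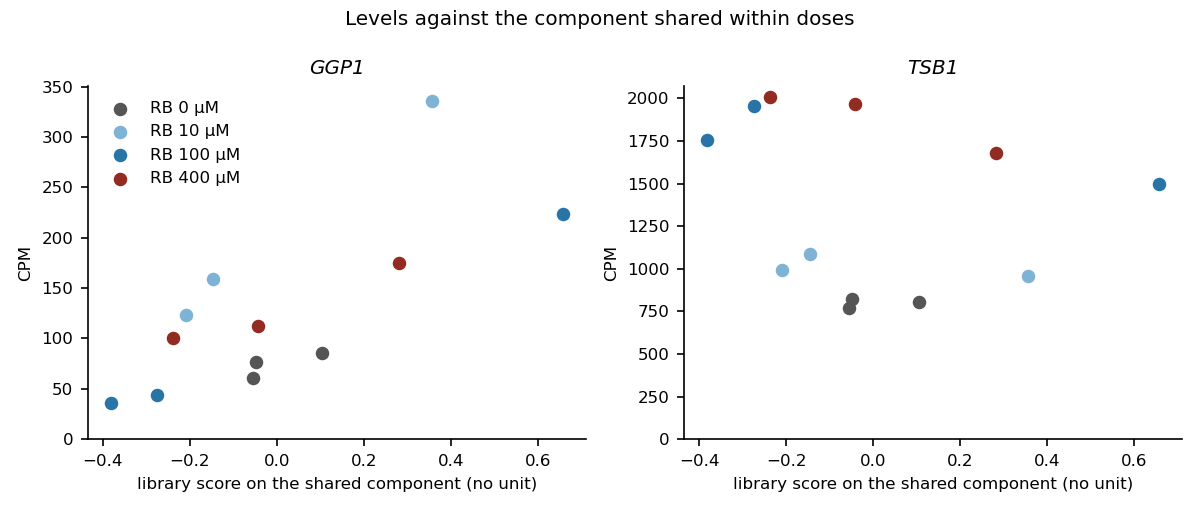
Level of GGP1 and of TSB1 in CPM (vertical axes, from 0) in each library against the score of the library on the main component of scatter within doses (horizontal axis, no unit), coloured by dose. Within each dose GGP1 is highest in the library with the highest score, reaching 336 CPM at 10 µM and 223 CPM at 100 µM, and TSB1 at 10, 100 and 400 µM is lowest there.

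MYB51, the transcription factor of the group, was the gene called at every dose. Its level was 24.2, 22.2 and 14.3 CPM untreated, 53.9, 64.5 and 72.6 CPM at 10 µM, 78.3, 95.1 and 81.6 CPM at 100 µM and 105, 88.5 and 97.4 CPM at 400 µM. The untreated and the treated libraries were widely separated, the 10 µM libraries lay below all those at the higher doses, and the 100 and 400 µM groups overlapped. MYB51 rose 3.11-fold at 10 µM (log2 1.64 ± 0.20 SE, adjusted p = 2.2e-05), 4.16-fold at 100 µM (log2 2.06 ± 0.19 SE, adjusted p = 3.2e-07) and 4.76-fold at 400 µM (log2 2.25 ± 0.20 SE, adjusted p = 8.02e-08). The step from 10 to 100 µM, log2 0.42 ± 0.18 SE, was not called (adjusted p = 0.187). Each of the 20 alternatives kept the calls against RB 0 µM, with adjusted p of at most 0.00032 at 10 µM.

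Other regulators of indole metabolism were described from a list of 18, of which 15 were measured. At 10, 100 and 400 µM, 3, 5 and 5 were called higher and none lower, with a median log2 fold change of 0.23 at 400 µM over the list. The share of all genes called higher was 2.66%, 7.32% and 9.11% at these doses. Of the list, 2, 5 and 5 were called without the 3 libraries. WRKY33 stood at 58.9, 76.3 and 65.6 CPM untreated, at 380, 223 and 301 CPM at 10 µM, at 454, 325 and 470 CPM at 100 µM and at 615, 539 and 654 CPM at 400 µM, so that every treated library was far above the untreated ones. Its log2 fold changes were 2.16 ± 0.19 SE, 2.63 ± 0.19 SE and 3.17 ± 0.20 SE, with adjusted p of 3.87e-07, 1.16e-08 and 8.85e-10. MYC2, a jasmonate factor known to act with MYB51 on glucosinolate genes, was not called at 10 µM (log2 0.51 ± 0.16 SE, adjusted p = 0.113, though 0.0314 when replicate 3 at 10 µM was left out) and rose by the same log2 1.47 ± 0.16 SE at 100 and 400 µM. MKK4, a MAP kinase kinase of the cascade known to activate WRKY33, rose at all 3 doses (log2 0.91, 1.31 and 1.41), and MKK9, another MAP kinase kinase, rose at 100 and 400 µM (log2 0.64 and 0.83). The MAP kinase kinase gene MKK5 and the MAP kinase genes MPK3 and MPK6, of the same list, were not called at any dose.

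Of 12 other genes of tryptophan synthesis 7 were measured, and 0, 1 and 2 were called higher at the 3 doses, with none called lower. Over all genes 2.66%, 7.32% and 9.11% were called higher, and counts this small are not read as a result about the list. At 10 µM 2 of the 7 were higher at an unadjusted p under 0.05, and DESeq2 called 0, 1 and 0. Without the 3 libraries the counts were again 0, 1 and 2. Their median log2 fold change was 0.40 at 400 µM. TSB2 had 34.3, 40.5 and 34.3 CPM untreated and 54.9, 47.7 and 64.8 CPM at 400 µM, with log2 fold changes of 0.82 ± 0.20 SE at 100 µM (adjusted p = 0.00949) and 0.62 ± 0.20 SE at 400 µM (adjusted p = 0.0468). The call of TSB2 at 100 µM was lost when untreated replicate 3 (adjusted p = 0.0524) or replicate 3 at 100 µM (0.0667) was left out, and that at 400 µM in 9 of 20 alternatives. ASB1, a beta subunit of anthranilate synthase, was called at 400 µM (log2 1.56 ± 0.51 SE, adjusted p = 0.0435) at levels of 0.404 to 7.84 CPM, and 8 of 20 alternatives ended that call. TSBtype2 (AT5G38530), a further beta subunit gene, had log2 0.16 ± 0.27 SE at 400 µM and was not called. PAT1, which encodes the enzyme after anthranilate synthase, was called lower at 100 than at 10 µM (log2 -2.62 ± 0.67 SE, adjusted p = 0.0329), where RB 10 µM replicate 1 had 83.5 CPM and the others of its dose 16.3 and 6.77 CPM. Without that library the log2 fold change was -1.09 (adjusted p = 0.357), and in all 5 of 20 alternatives ended the call.

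The shikimate pathway supplies chorismate, and 8 genes were measured of a list of 13 that also held the chorismate mutases. No chorismate mutase and no shikimate kinase was among the 8. DHS1 and DHS3, which encode the first enzyme of the pathway, were called higher at 100 and 400 µM, as were 7.32% and 9.11% of all genes. At 10 µM no gene of the list was called, by either tool or at an unadjusted p under 0.05. DHS1 had 324, 345 and 410 CPM untreated, 608, 491 and 674 CPM at 100 µM and 627, 593 and 549 CPM at 400 µM, with no overlap between the untreated and these treated libraries. Its log2 fold changes were 0.72 ± 0.14 SE at 100 µM (adjusted p = 0.00123) and 0.71 ± 0.14 SE at 400 µM (adjusted p = 0.000987), and those of DHS3 were 0.73 ± 0.15 SE (adjusted p = 0.00287) and 0.87 ± 0.15 SE (adjusted p = 0.000438). DHS2, the other gene for this enzyme, was at 89.4, 30.0 and 32.9 CPM at 100 µM against 84.7 to 108 CPM untreated, and its log2 fold change of -0.84 ± 0.29 SE was not called (adjusted p = 0.0656). DHS2 was called lower there by DESeq2 (log2 -0.85, adjusted p = 0.0366), with the replicate number as a block (log2 -0.92, adjusted p = 0.0435) and without RB 100 µM replicate 1 (log2 -1.56, adjusted p = 7.86e-06). The deviations of DHS2 went with the component that sets RB 100 µM replicate 1 apart (r = 0.88), and the part of the component in these calls was not tested. Over the list 4 genes were called in either direction at 100 µM without that library, and 0, 4 and 2 at the 3 doses without the 3 libraries. EPSPS2, an isoform of the enzyme that glyphosate blocks, had log2 -0.65 ± 0.23 SE at 400 µM and was not called (adjusted p = 0.0606), but was called lower with library totals (adjusted p = 0.0209) and without RB 400 µM replicate 1 (0.0432). The median of the list at 400 µM was log2 -0.06, near that of all genes.

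Among 9 measured of 13 other genes of camalexin synthesis, related indoles and export, 3, 5 and 5 were called higher at 10, 100 and 400 µM and none lower. Beside them, 2.66%, 7.32% and 9.11% of all genes were called higher. At 10 µM 1 was called when untreated replicate 1 or 3 was left out, and without the 3 libraries 2, 5 and 5 were called. The median of these 9 was log2 1.64 at 400 µM. FOX1, an oxidase of the related indole cyanogenic pathway, had 25.4, 34.8 and 27.8 CPM untreated, 56.7, 51.2 and 83.1 CPM at 10 µM, 114, 125 and 137 CPM at 100 µM and 144, 113 and 149 CPM at 400 µM, and rose by log2 1.09 ± 0.20 SE, 2.08 ± 0.20 SE and 2.20 ± 0.20 SE. ABCG40, a transporter of the plasma membrane, went from 1.61, 3.80 and 2.17 CPM untreated to 34.0, 35.6 and 44.0 CPM at 400 µM, a log2 fold change of 3.83 ± 0.38 SE (adjusted p = 4.15e-07). The call of ABCG40 at 10 µM was lost in 3 of 20 alternatives, those without untreated replicate 1 (adjusted p = 0.116), untreated replicate 3 (0.0988) or replicate 3 at 10 µM (0.0686). ABCG36, also named PEN3, a transporter known to export such indoles, rose by log2 0.90 ± 0.12 SE at 100 µM and 0.81 ± 0.12 SE at 400 µM. GGT1, a gamma-glutamyl transpeptidase, rose by log2 0.81 ± 0.20 SE, 1.40 ± 0.20 SE and 1.91 ± 0.20 SE, although its call at 10 µM was lost in 6 of 20 alternatives.

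The indole glucosinolates leave the same aldoxime by another branch, and 20 of 22 genes of their synthesis and breakdown were measured. At 10, 100 and 400 µM, 5, 5 and 6 were called higher and none lower than untreated. Over all genes 2.66%, 7.32% and 9.11% were called higher. Without the 3 libraries set apart, 4, 8 and 8 of the list were called in either direction. Counted the same way, 2 were called at 10 µM when untreated replicate 3 was left out, and 3 without untreated replicate 1 or without RB 10 µM replicate 1. At 100 µM 8 were called without RB 100 µM replicate 1. Of the 5 called at 10 µM, the deviations of IGMT4 (r = 0.95) and CYP81F2 (r = 0.86), both named after their values were seen, and of UGT74B1 (r = 0.48) went with the component that sets the 3 libraries apart, and its part in these calls was not tested. IGMT2 and IGMT3, neighbouring genes for indole glucosinolate O-methyltransferases, had the largest log2 fold changes of the list at 400 µM. IGMT3 went from 7.27, 8.86 and 6.51 CPM untreated to 68.3, 57.5 and 72.0 CPM at 10 µM and 111, 105 and 113 CPM at 400 µM, and IGMT2 from 7.67, 8.23 and 5.64 CPM to 50.4, 35.2 and 56.6 CPM and 110, 82.8 and 104 CPM. Their log2 fold changes at 10 µM were 3.10 ± 0.20 SE (adjusted p = 6.28e-09) and 2.68 ± 0.23 SE (adjusted p = 2.49e-07). The last 300 bases of these 2 transcripts shared a run of 50 bases, so reads could be exchanged between them. PEN2, a myrosinase that breaks these compounds down, rose by log2 1.17 ± 0.15 SE at 100 µM and 1.20 ± 0.16 SE at 400 µM, and APK2, an adenosine-phosphosulphate kinase that feeds sulphate to the pathway, by log2 1.26 ± 0.19 SE and 1.25 ± 0.19 SE. UGT74B1, a glucosyltransferase, was called higher at 10 µM (log2 2.46 ± 0.56 SE, adjusted p = 0.0136) and lower at 100 than at 10 µM (log2 -1.99 ± 0.55 SE, adjusted p = 0.0438), with 27.1 CPM in RB 10 µM replicate 1 and 4.20 and 8.61 CPM in the others. Without that library neither was called (log2 1.32, adjusted p = 0.26, and log2 -0.87, adjusted p = 0.457). In all, 5 of 20 alternatives ended the first call, among them the omission of any untreated library (adjusted p = 0.0512 to 0.0811), and 11 of 20 the second, among them the omission of any library at 0 or 400 µM (0.0572 to 0.0644).

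Auxin is another product that can be drawn from tryptophan, and 10 of 14 genes of that synthesis were measured. None was called at 10 µM by edgeR or DESeq2, with 1 lower at an unadjusted p under 0.05, and at 100 and at 400 µM 1 was called higher and 2 lower, against 7.32% and 9.11% of all genes called higher and 4.22% and 6.43% called lower, with a median log2 fold change of -0.37 at 400 µM. Counted in either direction, the 3 calls at 100 µM became 1 without untreated replicate 2 and 4 without RB 100 µM replicate 1. Without the 3 libraries 0, 4 and 3 were called in either direction at the 3 doses. The nitrilase gene NIT1 had 653, 745 and 800 CPM untreated and 385, 380 and 444 CPM at 400 µM, with no overlap and a log2 fold change of -0.86 ± 0.14 SE (adjusted p = 0.000174). The neighbouring nitrilase gene NIT2 had a log2 fold change of -0.95 ± 0.25 SE (adjusted p = 0.0112), while NIT4, a nitrilase known to act on beta-cyanoalanine, rose by log2 0.81 ± 0.20 SE (adjusted p = 0.00779). The call of NIT2 at 400 µM was lost without untreated replicate 3 or replicate 1 or 2 of that dose (adjusted p = 0.0739 to 0.0844), and that of NIT4 without untreated replicate 2 (0.0584) or replicate 3 of that dose (0.0791). NIT1 and NIT2 are close copies, so their separate values are uncertain. YUC5, a flavin monooxygenase that makes auxin, had 1.05 to 5.25 CPM over all libraries and was not called (log2 -0.72 ± 0.55 SE at 400 µM). The plot of the lists gives every measured gene at 400 µM.

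**Figure D5:**
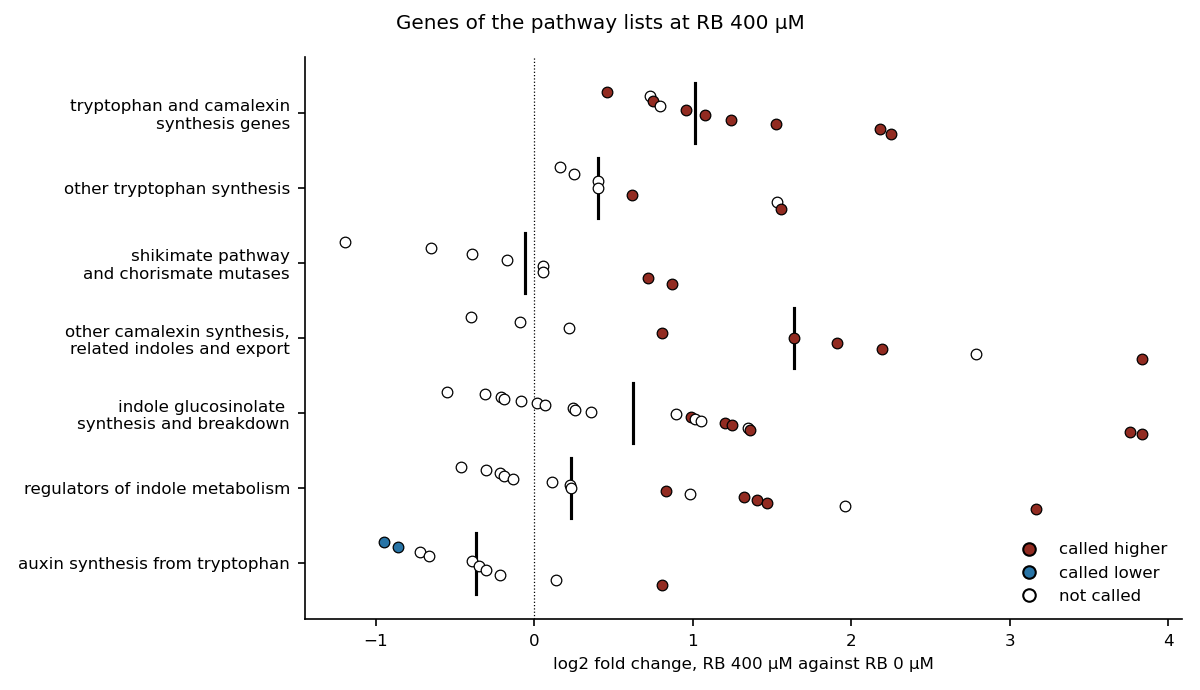
Log2 fold change at RB 400 µM against RB 0 µM (horizontal axis) of every measured gene of the 10 tryptophan and camalexin genes and of 6 lists around them, with the list median as a bar. Filled points were called higher (red) or lower (blue), and the medians run from -0.37 for auxin synthesis to 1.64 for the other camalexin genes.

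Over the 12 libraries the level of ASA1 on the log2 scale was most like those of AT1G78850 (Pearson r = 0.947), AT4G33940 (r = 0.931) and the glutathione transferase gene GSTF7 (r = 0.930), among 6903 other genes with at least 10 CPM on average. The level of PAD3 was most like those of AT4G39830 (r = 0.981), of RBOHD (r = 0.972), which encodes the NADPH oxidase known for the oxidative burst, and of AT5G24430 (r = 0.972). RBOHD went from a mean of 140 CPM untreated to 623 CPM at 400 µM, and AT4G39830 from 6.03 to 27.4 CPM. The 12 points fall into 4 doses and share their libraries, so these values describe likeness of pattern over dose only.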

How the data were processed

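Total RNA of 12 seedling libraries went into bulk MARS-seq on an Illumina NextSeq. Per the study's methods the authors trimmed reads with cutadapt, aligned them to Araport 11 with STAR and used HTSeq-count. The submitters' processing notes give cutadapt 1.8.3 and bcl2fastq 2.17.1.14. The deposited raw counts hold genes past a minimum set by the authors (the lowest of the genes' highest counts was 6). They are labelled as made with no filter by molecular identifier, and the study's methods mention no collapse of such reads, so PCR duplicates may remain. The deposited normalized signal (a count over its library's size factor) and the deposited regularized log2 values were not analysed further. Groups follow the RB dose of the labels, whereas the study's own list of data sets has DCMU against this series.

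The 13307 genes were tested with edgeR 4.0.16 under R 4.3.3 (limma 3.58.1 loaded), using TMM factors and glmQLFit with glmQLFTest in a single fit of the 12 libraries, two-sided, with Benjamini-Hochberg adjustment over all genes. A filter of 5 reads in 1 library removed none. SE is the size of the log2 fold change over the square root of F. CPM are counts over TMM-scaled library totals. Correlations used log2 CPM with a prior count of 1, over genes of at least 10 CPM on average. The tests were tried on simulated data. Of the identifiers, 13214 (99.3%) matched RefSeq's TAIR10.1, the source of names, positions and sequences, whose nuclear chromosomes are those of TAIR10, on which Araport 11 is built.

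The members, the lists and the alternatives were chosen with earlier results of these data known. The text names all 10 members, up to 4 genes of each list with the smallest p in the F test over the doses, any gene called against most of its list, and the 3 genes most like ASA1 and PAD3. CASP1, COBL9, CYP81F2, IGMT4, MKK5, MPK3 and MPK6 were named after their values were seen. As alternatives, DESeq2 size factors, plain library totals, a stricter filter (1 CPM in 3 libraries), no filter, DESeq2 1.42.0, fits restricted to the 2 groups, a replicate block, the omission of every library in turn and that of 3 libraries at once were run.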

Additional observations from a re-analysis of the deposited data

How the results depend on the processing

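Of the counts of the 10 genes called, that at 10 µM was 2 in place of 1 when the fit was restricted to the 2 groups and without the 3 libraries set apart, and 1 to 2 when each library was left out. Between 10 and 100 µM it was 2 in place of 4 with the same restriction. Between 100 and 400 µM it was 1 in place of 0 without the 3 libraries, and 0 to 1 when each library was left out (1 without RB 100 µM replicate 1). The counts at 100 and 400 µM, 7 and 8, stayed within 1.5 times under all 20 alternatives run. They fell to as few as 5 and 6 when a single library was dropped, and rose to 8 and 10 without the 3 libraries. Over all genes, 497 were called at 10 µM and 313 to 638 when each library was left out, the lowest without RB 0 µM replicate 3, and 1535 were called at 100 µM. Without the 3 libraries the counts were 516, 2369 and 2268 at the 3 doses. With library totals the median of all genes at 400 µM went from log2 -0.04 to -0.15 and the share of calls that were higher from 58.6% to 46.5% (at 100 µM, 63.5% to 49.4%), while the medians of the 10 genes and of the lists kept their direction at all 3 doses.

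Direction changed among values that were not called, beside GGP1 at 100 against 0 µM, which was called at log2 -0.91 without the 3 libraries. With library totals, CYP79B3 (log2 -0.034) and CYP71A13 (log2 -0.050) turned between 10 and 100 µM. Without the 3 libraries, CYP79B3 gave log2 0.081 between 100 and 400 µM, and CYP71A13 gave 0.11 at 10 µM, 0.028 at 100 µM and -0.085 between 10 and 100 µM. When each library was left out, CYP71A13 ran from -0.92 to 0.15 at 10 µM, from -0.59 to 0.095 at 100 µM and from -0.34 to 0.76 between them, GGP1 from -0.91 to 0.86 at 100 µM, TSBtype2 from -0.094 to 0.29 and CA1, a leaf marker, from -0.34 to 0.013 at 400 µM. Between 100 and 400 µM CYP79B3 ran from -0.16 to 0.012, CYP71A12 from -0.027 to 0.27 and GGP1 from -0.062 to 1.71. The cause of these changes was not tested.

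Deviations of same-numbered libraries of different doses had r from -0.37 to 0.42 over 18 pairs, with both signs among them. Whether same-numbered libraries were handled together is not given by the labels. With the replicate block, 1, 7 and 8 of the 10 genes were called at the 3 doses, as without it, and 468, 1484 and 1989 of all genes in place of 497, 1535 and 2068. The 3 libraries per dose and the few reads of CYP71A13 and ASB1 limit what could be detected.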
